A study of Mus musculus with 4 samples.

Results

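The Notch pathway of the neonatal mouse forebrain was followed through 10 genes, picked by symbol from the 32285 genes counted in each library. The ligands were Dll1, Dll3 and Jag1, the receptors were Notch1 and Notch2, and the effectors were Hes1, Hes5, Hes6, Hey1 and Heyl. All 10 were present in the gene list. In Notch signalling a ligand on the surface of a cell binds a receptor on its neighbour, the receptor is cut, and its intracellular part joins the DNA-binding protein Rbpj to switch on repressors such as Hes1 and Hes5. These repressors hold back Dll1 and proneural factors, so that a cell that receives the signal stays a progenitor while its ligand-bearing neighbour differentiates. In the forebrain the pathway is best known for keeping neural stem cells and for directing glial fate.

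The libraries came from sorted tdTomato-labelled forebrain cells of C57BL/6 mice at postnatal day 5. Control mice were NestinCreERT2/tdTomato/Chd8+/+ and mutant mice were NestinCreERT2/tdTomato/Chd8+/F, so that both groups carried the inducible Cre and the reporter and only the mutant carried 1 floxed allele of Chd8, a chromatin remodeller. Both were given tamoxifen in midgestation, and Cre acted in cells that expressed Nestin then and in their descendants. Each of the 4 libraries (2 control, 2 mutant) held cells pooled from several mice, so that p-values between genotypes measure the spread between pools.

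After filtering, 17623 of 27742 barcodes remained, from 2973 to 5710 per library, with a median of 11497 to 11838 UMIs (unique molecular identifiers, 1 per captured RNA molecule) per cell. The replicate 2 libraries stood apart from the replicate 1 libraries. They had been processed with Cell Ranger 5.0.1 rather than 7.0.0 according to the matrix headers, their median mitochondrial share was 4.86% and 5.64% against 2.18% and 2.60%, and their Xist level was 1630 and 1750 CPM (UMIs of a gene per 1000000 UMIs of all genes) against 0.149 and 0.153 CPM. Xist is made from the inactive X chromosome of female cells, so the replicate number also went with the sex that the RNA showed, and these differences between replicate numbers cannot be told apart. The later program version counts intronic reads unless told otherwise, and the setting used is not given in the sources used here. Any 2 libraries shared at most 15 kept barcodes. Chd8 itself stood at 61.7 and 89.8 CPM in the control libraries and at 68.7 and 94.9 CPM in the mutant libraries, and tags from the 3′ end of the transcript do not test the deletion of internal exons.

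The labels call the cells neuronal, whereas astrocytes were the most numerous type by markers and microglia and mural cells were present. Clusters were named by markers with the 54 pathway genes left out of the clustering, and each name below stands for a cluster that is like that cell type. There were 16 types with at least 20 cells in every library. They included 1031 neural stem-like cells, 4094 astrocytes, 585 primitive oligodendrocyte progenitors (with Olig1, Egfr and Olig2 among their leading genes), 2404 oligodendrocyte precursor cells (OPC), 559 committed oligodendrocyte precursors, 2750 inhibitory neurons, 329 excitatory precursors and 940 excitatory neurons. Mbp and Mag, genes of myelinating oligodendrocytes, were among the leading genes of the committed precursors, and no cluster took the oligodendrocyte name. The stem-like name is the least secure. Both clusters that took it scored higher as astrocytes (3.24 and 2.65) than as stem-like cells (2.94 and 2.46, mean log2 excess of the markers over the median cluster), and were named for stem-like markers because these scores came nearer to the highest of any cluster. Veph1 and Hopx were among their leading genes, and so were Aldoc and Gfap, which astrocytes also express. At a mitochondrial limit of 5% the type was not among those compared. A level below is the CPM of all UMIs of a type in a library, and 4 values in a row follow the order control replicates 1 and 2, then mutant replicates 1 and 2. Levels are compared between cell types for 1 gene at a time, and differences between types are descriptions with no test, because the types were defined from the same cells. Some types joined clusters that came almost wholly from a single replicate number. An astrocyte cluster held 771, 10, 753 and 7 cells and another 41, 579, 43 and 606. An inhibitory neuron cluster held 0, 141, 0 and 179 cells. Mural clusters held 5, 194, 12 and 259 cells and 30, 0, 70 and 0 cells. The make-up of these types thus differed between replicate numbers.

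On the mm10 assembly, Dll1 lies on chromosome 17 (15367354 to 15376872, minus strand), Dll3 on chromosome 7 (28293553 to 28302238, minus strand) and Jag1 on chromosome 2 (137081456 to 137116644, minus strand). Notch1 is also on chromosome 2 (26457903 to 26516663, minus strand) and Notch2 is on chromosome 3 (98013527 to 98150361, plus strand). Of the effectors, Hes1 is on chromosome 16 (30064384 to 30067796, plus strand), Hes5 on chromosome 4 (154960923 to 154962371, plus strand), Hes6 on chromosome 1 (91411483 to 91414038, minus strand), Hey1 on chromosome 3 (8663359 to 8667256, minus strand) and Heyl on chromosome 4 (123233556 to 123249875, plus strand). Introns make up 126053 bases of Notch2 and 44529 bases of Notch1, but only 86 bases of Hes5.

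The promoters of 4 of the genes that differed along or within the oligodendrocyte lineage below are shown. Jag1, Notch1 and Notch2 also differed there, and their windows are not shown. Hes1 differed there too, and the promoter set used here held no window for it. Each window runs from 250 bases before to 50 bases after a RefSeq transcription start on GRCm38.p6, written 5′ to 3′ on the strand of the gene. Capitals mark every match, on either strand, to TGGGAA (the core of the Rbpj site), CAGCTG (an E-box bound by proneural factors) or CACNAG (the N-box bound by Hes repressors), none of which contains another.
Hes5, chr4:154960673-154960972, plus strand: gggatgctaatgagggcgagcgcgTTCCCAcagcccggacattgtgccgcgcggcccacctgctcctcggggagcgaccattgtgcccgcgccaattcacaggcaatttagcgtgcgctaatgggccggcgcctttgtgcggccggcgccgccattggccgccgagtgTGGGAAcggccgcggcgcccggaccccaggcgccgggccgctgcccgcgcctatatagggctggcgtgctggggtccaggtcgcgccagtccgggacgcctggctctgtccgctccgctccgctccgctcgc
Hes6, chr1:91413989-91414288, minus strand: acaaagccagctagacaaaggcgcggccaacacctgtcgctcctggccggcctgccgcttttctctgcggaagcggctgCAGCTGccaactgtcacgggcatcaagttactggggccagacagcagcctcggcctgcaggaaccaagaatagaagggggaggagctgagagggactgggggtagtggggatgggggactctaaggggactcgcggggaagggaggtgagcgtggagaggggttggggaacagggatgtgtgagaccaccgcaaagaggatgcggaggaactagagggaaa
Dll1, chr17:15376883-15377182, minus strand: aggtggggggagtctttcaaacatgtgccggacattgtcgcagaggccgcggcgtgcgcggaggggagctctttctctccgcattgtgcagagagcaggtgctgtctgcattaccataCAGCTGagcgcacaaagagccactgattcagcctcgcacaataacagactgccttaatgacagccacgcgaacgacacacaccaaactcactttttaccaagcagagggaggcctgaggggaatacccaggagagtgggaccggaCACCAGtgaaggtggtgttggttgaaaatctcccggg
Dll3, chr7:28301736-28302035, minus strand: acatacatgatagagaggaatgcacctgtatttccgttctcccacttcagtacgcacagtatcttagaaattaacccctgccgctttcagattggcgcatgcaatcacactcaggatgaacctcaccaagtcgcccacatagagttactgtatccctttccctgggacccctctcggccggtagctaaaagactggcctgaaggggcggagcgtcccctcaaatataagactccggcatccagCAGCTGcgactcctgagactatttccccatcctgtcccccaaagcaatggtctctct

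In Hes5 the Rbpj core matched at 226 and 82 bases before the start, and neither other motif matched. In Dll3 the E-box began 7 bases before the start, in Dll1 132 bases and in Hes6 171 bases before it, and this Dll1 window also held 1 N-box. Dll1 and Hes6 each had another window, not shown, which for Dll1 (chr17:15375774-15376073) held no match and for Hes6 (chr1:91413173-91413472) held an E-box beginning 150 bases before the start and 2 N-boxes. The RefSeq promoter set used here held 9 windows for 7 of the 10 genes, and none for Hes1, Hey1 and Heyl. Of these 9, TGGGAA matched in 1, CAGCTG in 5 and CACNAG in 4, against 25.6%, 16.3% and 42.5% of all 32851 windows of this length. A match describes the letters and says nothing of binding in these cells.

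Among the ligands, Dll1, which activates receptors on neighbouring cells, was highest in primitive oligodendrocyte progenitors. Its levels there were 113, 155, 114 and 137 CPM (130 ± 20.1, SD, n = 4). All 4 lay above the highest value in OPC, the next type, where Dll1 stood at 40.8, 62.5, 30.2 and 56.8 CPM. Mixed dividing progenitors (32.6 ± 10.6 CPM, SD, n = 4) and dividing OPC (30.4 ± 4.87 CPM, SD, n = 4) came next and overlapped with OPC. In astrocytes Dll1 was at 3.35 ± 0.171 CPM (SD, n = 4), and in microglia, which do not descend from the neural lineage and are not known to use Delta ligands, at 0.811 ± 1.03 CPM (SD, n = 4).

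Dll3, a divergent ligand that acts mainly inside the cell that makes it, was shared more widely. It measured 124, 85.5, 106 and 167 CPM in OPC and 133, 77.8, 143 and 111 CPM in primitive progenitors, which overlapped fully. Excitatory precursors followed at 74.8, 60.0, 71.6 and 94.4 CPM, and dividing OPC at 69.5, 30.3, 64.0 and 61.4 CPM. Stem-like cells had 1.64 ± 0.946 CPM (SD, n = 4), the lowest of the 16 types after microglia. Thus Dll1 was apart in the primitive progenitors, whereas Dll3 continued into OPC and also marked excitatory precursors.

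Jag1 was distributed differently from both Delta ligands. In pericytes and mural cells, where Jag1 takes part in vessel wall formation, it measured 134, 112, 79.6 and 124 CPM. Among the 16 types, primitive progenitors were second at 37.6, 41.6, 38.5 and 35 CPM, apart from all lower types. Fibroblasts (66.1 ± 23.0 CPM, SD, n = 4) and endothelial cells (59.3 ± 7.65 CPM, SD, n = 4), which had too few cells to be among the 16, were above them in every library. Stem-like cells came after primitive progenitors at 22.4, 29.8, 15.4 and 27.5 CPM, overlapping with mixed dividing progenitors (23.0 ± 8.39 CPM, SD, n = 4). In astrocytes it was at 5.35 ± 1.18 CPM (SD, n = 4).

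**Figure D1:**
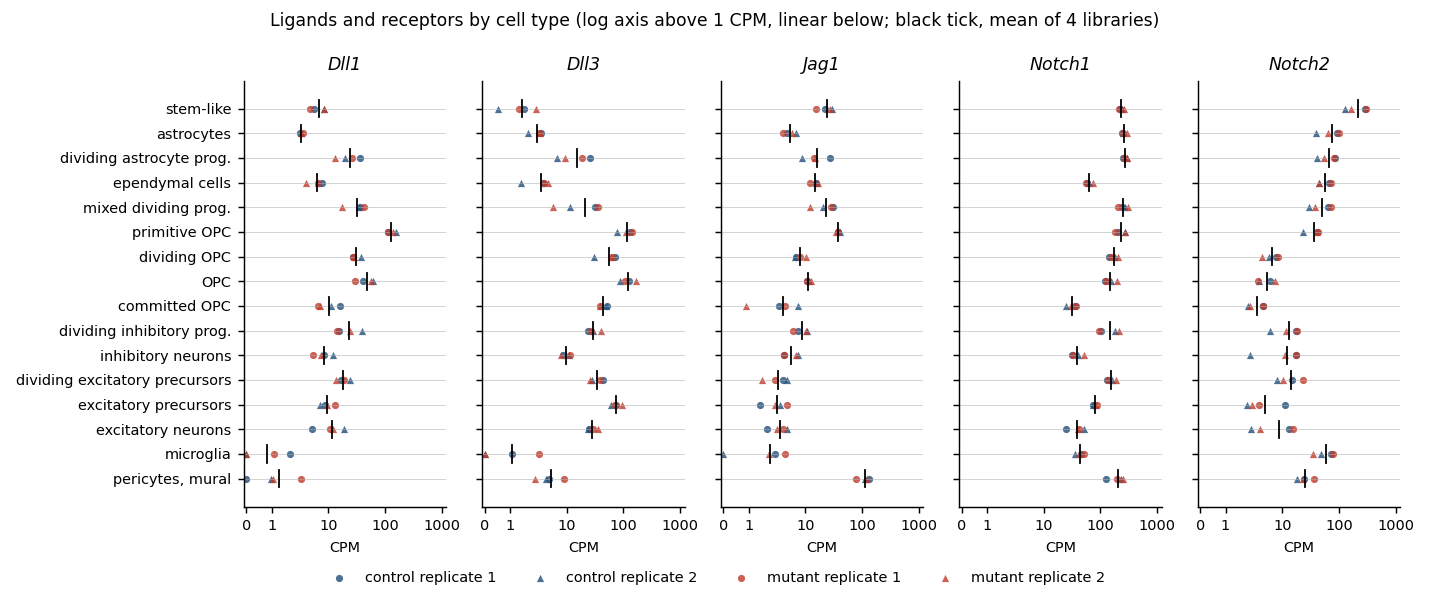
Levels of 3 ligands and 2 receptors in 16 cell types. Each point is 1 library (CPM, linear below 1 and logarithmic above), blue for control and red for mutant, and the black tick is the mean of 4 libraries. Dll1 peaks in primitive oligodendrocyte progenitors (130 CPM), Dll3 also in OPC (121 CPM), Jag1 in pericytes and mural cells (112 CPM) and Notch2 in stem-like cells (218 CPM).

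The receptor Notch1 was broad, and Notch2 was not. Notch1 was between 182 and 304 CPM in every library of dividing astrocyte progenitors, astrocytes, mixed dividing progenitors, stem-like cells and primitive progenitors, and the 5 types overlapped. It was lowest in committed oligodendrocyte precursors at 35.6, 24.5, 36.7 and 30.3 CPM. Inhibitory neurons (38.8 ± 9.09 CPM, SD, n = 4) and excitatory neurons (39.2 ± 10.6 CPM, SD, n = 4) overlapped with them. Microglia held 43.6 ± 6.95 CPM (SD, n = 4), so that these 3 types were not above the level in microglia.

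Notch2, the close relative of Notch1, stood at 284, 128, 298 and 161 CPM in stem-like cells. Even the lowest of these exceeded the highest value in astrocytes, where Notch2 was at 92.3, 38.7, 99.7 and 65.2 CPM. Primitive progenitors had 36.8 ± 8.73 CPM (SD, n = 4), and OPC had 5.30 ± 1.79 CPM (SD, n = 4). Microglia stood at 58.2 ± 20.3 CPM (SD, n = 4), above OPC and overlapping with primitive progenitors. Over all cells, Notch2 was lower in replicate 2 than in replicate 1 by a log2 difference of -1.02 in control and -0.50 in mutant libraries, whereas Notch1 was higher by 0.46 and 0.63 and Hes5 differed by 0.01 and 0.03. The Notch2 difference between replicate numbers moved with the program version, Xist, the mitochondrial share and the cell type composition, whose parts in it were not tested.

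Of the effectors, Hes5, a main repressor downstream of Notch in neural progenitors, was highest in astrocytes at 820, 660, 811 and 615 CPM. Stem-like cells followed and overlapped with them at 650, 447, 565 and 355 CPM. Dividing astrocyte progenitors had 439 ± 20.3 CPM (SD, n = 4). Primitive progenitors had 433, 412, 319 and 171 CPM, with both mutant libraries below both control libraries. OPC had 138, 125, 137 and 142 CPM. Below these, ependymal cells (18.5 ± 6.21 CPM, SD, n = 4) and inhibitory neurons (17.5 ± 4.07 CPM, SD, n = 4) did not exceed microglia (31.7 ± 22.4 CPM, SD, n = 4), a type in which Hes5 is not known to be expressed.

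Hes1, which represses the same kinds of targets and also answers to other signals, had another order. It was highest in pericytes and mural cells (191, 170, 416 and 146 CPM) and stem-like cells (218, 200, 282 and 116 CPM), which overlapped. Ependymal cells followed at 123, 134, 187 and 100 CPM. Thus ependymal cells held Hes1 but not Hes5 above the microglial level. Primitive progenitors, dividing OPC and OPC were close to each other, with means of 59.8, 60.8 and 68.0 CPM. Hes1 was at 1.07 ± 1.25 CPM (SD, n = 4) in excitatory precursors and 3.22 ± 0.441 CPM (SD, n = 4) in inhibitory neurons.

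Hes6, which counteracts Hes1 and favours differentiation, was highest in the same type as Dll1. Primitive progenitors had 317, 363, 273 and 332 CPM, and dividing excitatory precursors, which overlapped with them, had 199, 286, 189 and 256 CPM. OPC, where Dll3 was high, had 73.6 ± 25.4 CPM of Hes6 (SD, n = 4). Ependymal cells had the lowest Hes6 level, 16.2 ± 1.64 CPM (SD, n = 4). Hey1, a related repressor, was highest in astrocytes at 78.4, 62.1, 75.9 and 74.6 CPM and second in ependymal cells at 64.1, 45.0, 60.8 and 40.5 CPM. Heyl was highest in pericytes and mural cells, at 210, 260, 282 and 244 CPM, against 9.93 ± 3.51 CPM (SD, n = 4) in astrocytes, the next of the 16 types. No Heyl UMI was found in dividing inhibitory neuron progenitors, where 3 counts would have meant 0.677 to 3.84 CPM depending on the library. Such limits cover counting error alone.

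**Figure D2:**
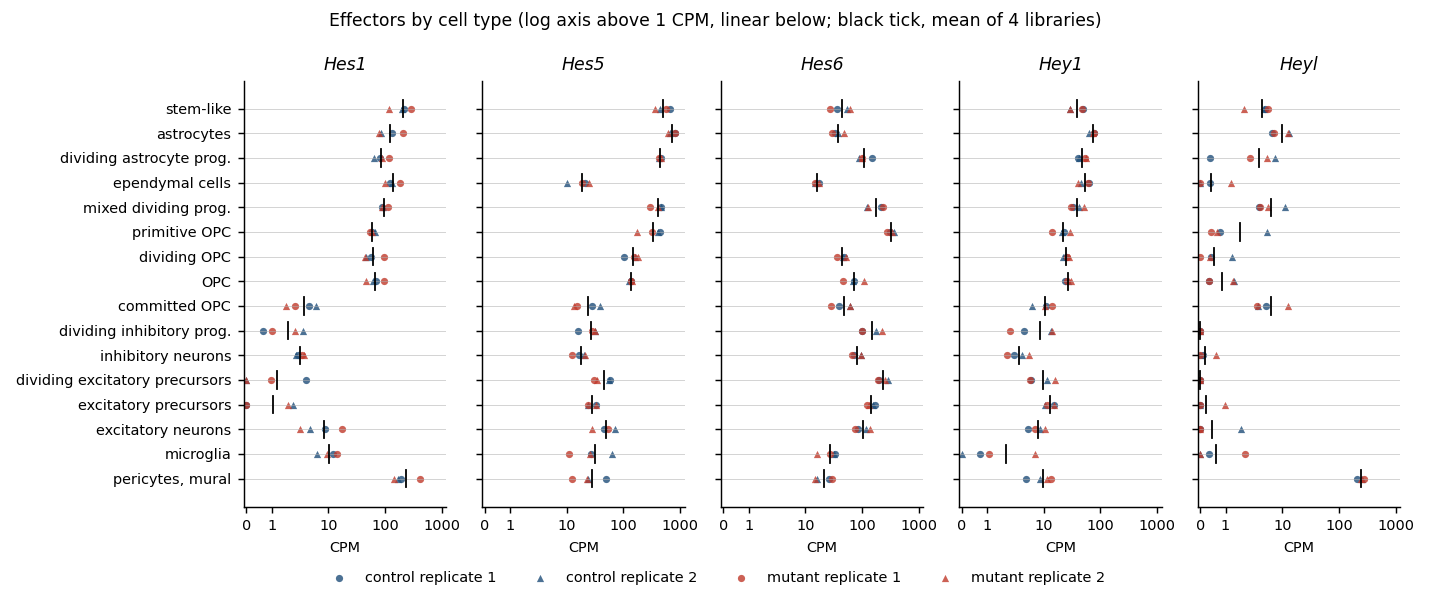
Levels of 5 effectors in the same 16 cell types, drawn in the same way (CPM per library, black tick for the mean of 4 libraries). Hes5 peaks in astrocytes (727 CPM) and is near the microglial level in ependymal cells (18.5 CPM), where Hes1 is at 136 CPM; Heyl is at 249 CPM in pericytes and mural cells.

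Across the 16 types, Dll1 varied most closely with Dll3 (Pearson r = 0.796 of log2(CPM + 1)) and with Hes6 (r = 0.740), and Notch1 with Hes5 (r = 0.776). Dll3 varied against Notch2 (r = -0.737) and Hes1 against Hes6 (r = -0.438). These values describe 16 points that share libraries and carry no test. Of 8227 other genes with at least 50 CPM in a type, the pattern most like that of Hes5 was that of Fabp7 (r = 0.943), the lipid-binding protein of radial glia, and then Dbx2 (r = 0.940). Plce1 (r = 0.961) and Efemp2 (r = 0.935) were most like Hes1, Polr2e (r = 0.923) and Fkbp4 (r = 0.915) most like Hes6, Pank1 (r = 0.937) and Fads2 (r = 0.930) most like Hey1, and Rhoj (r = 0.940) and Vasn (r = 0.931) most like Heyl. For the receptors these were Chchd3 (r = 0.926) and Slc7a5 (r = 0.913) for Notch1 and Dapp1 (r = 0.961) and Pon2 (r = 0.925) for Notch2. For the ligands they were Prmt5 (r = 0.914) and Nvl (r = 0.898) for Dll1, 2810004N23Rik (r = 0.894) and Aimp1 (r = 0.882) for Dll3, and Nbl1 (r = 0.943) and Rbpms2 (r = 0.860) for Jag1.

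To compare stem-like cells and progenitors with types taken to lie later, the later type was set over the earlier type within each library along 7 steps. The order within each step was assumed. All cells came from mice of the same age, and descent was not measured. A gene was counted along a step where its mean reached 20 CPM in either type, and it was called where the ratio was at least 2-fold in the same direction in all 4 libraries, with 1 CPM added to each level. This left 46 pairs of gene and step. In 18 of them the gene was lower in the later type and in 0 higher. Some of the 18 reached 20 CPM in the earlier type alone. Examples were Jag1 from stem-like cells to astrocytes (23.8 and 5.35 CPM) and Hes5 toward ependymal cells (504 and 18.5 CPM). The same limit was used for all genes, whose shares were taken by step and not for this total. Toward astrocytes the median log2 ratio of the counted genes was -0.21 from stem-like cells (all genes -0.14) and 0.14 from dividing progenitors (all genes -0.04). It was -1.37 toward ependymal cells (all genes -0.09), -1.32 toward inhibitory neurons (all genes 0.05) and -0.78 toward excitatory neurons (all genes -0.04). Each count of calls is given below beside the share of all genes called in that direction along the same step.

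The oligodendrocyte lineage is described first. From primitive progenitors to OPC, 4 of 9 genes were lower, against 4.84% of 8346 genes, and 0 were higher, against 9.35%. The ligands Dll1 and Jag1, the receptor Notch2 and the effector Hes6 were the ones called. The log2 ratios of Notch2 were -2.54, -2.34, -3.18 and -2.31, a mean of 6.03-fold lower. Those of Hes6 were -2.12, -2.38, -2.54 and -1.62 (4.48-fold), those of Jag1 -1.74, -1.75, -1.77 and -1.39 (3.16-fold) and those of Dll1 -1.45, -1.30, -1.88 and -1.26 (2.77-fold). All 4 libraries lay past 2-fold for each of these genes. Dll3 (mean log2 ratio 0.05 ± 0.431, SD, n = 4) and Hes1 (0.14 ± 0.486, SD, n = 4) had ratios on both sides of 0. The median over the 9 genes was -1.21, and over all genes 0.02.

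From OPC to committed precursors, 4 of 7 genes were lower, against 10.8% of 7990 genes, and 0 were higher, against 4.88%. These were Dll1, Notch1, Hes1 and Hes5. Hes1 differed most, with log2 ratios of -3.65, -3.11, -4.77 and -4.11 (15.1-fold lower), from 68.0 to 3.74 CPM, a level that rested on 33 UMIs in committed precursors. Hes5 ratios were -2.24, -1.65, -3.09 and -3.32 (5.96-fold), Notch1 ratios -1.70, -2.58, -1.73 and -2.66 (4.48-fold) and Dll1 ratios -1.31, -2.40, -2.02 and -2.83 (4.41-fold). Hes5 was therefore at 28.3, 39.1, 15.2 and 13.3 CPM in committed precursors, within the microglial range. Dll3 was lower by a mean of 2.62-fold but missed the threshold in control replicate 2. The median over the 7 genes was -2.14, and over all genes -0.16.

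**Figure D3:**
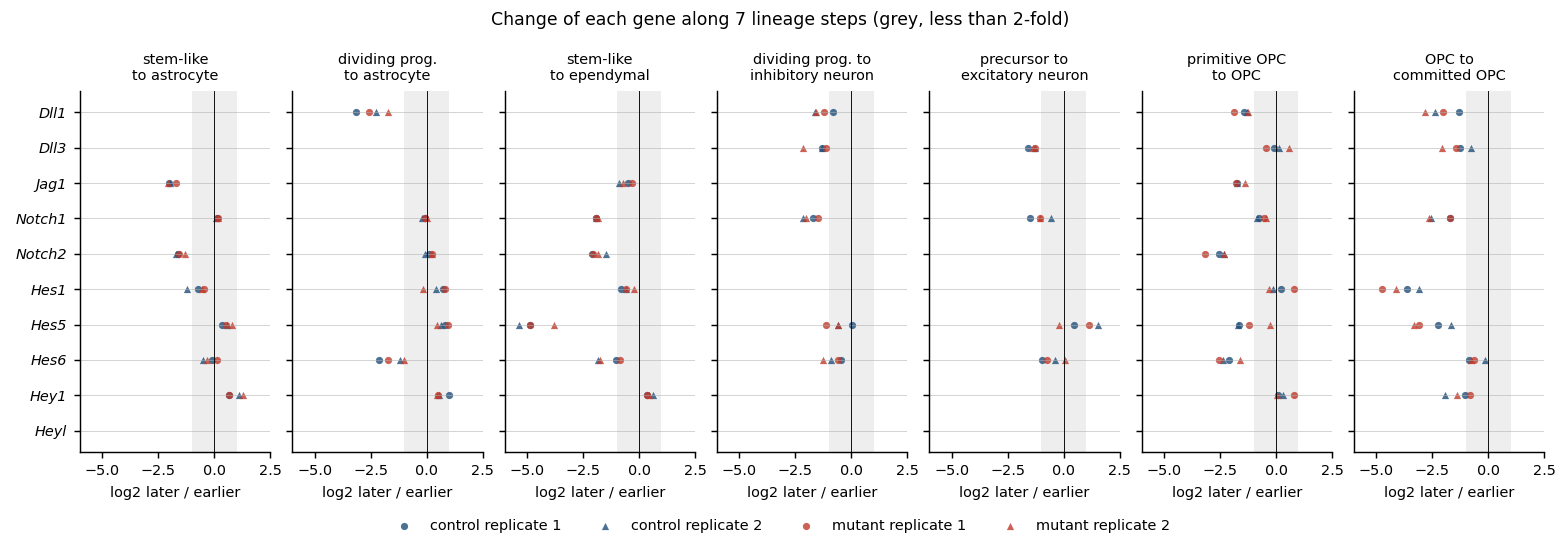
Log2 ratio of the later over the earlier type along 7 lineage steps for the 10 genes. Each point is 1 library (blue control, red mutant; circles replicate 1, triangles replicate 2), the grey band marks less than 2-fold, and gene rows without points were below 20 CPM in both types. The points of Hes5 from stem-like to ependymal cells (-5.36 to -3.81) and of Hes1 from OPC to committed precursors (-4.77 to -3.11) lie farthest to the left.

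From stem-like cells the 2 glial directions differed in which genes were lower. Toward ependymal cells 3 of 7 genes were lower, against 10.1% of 8904 genes, with 0 higher against 15.9%. Hes5 had log2 ratios of -4.87, -5.36, -4.86 and -3.81 (26.4-fold lower), Notch1 -1.93, -1.93, -1.91 and -1.84 (3.74-fold) and Notch2 -2.09, -1.48, -2.05 and -1.84 (3.64-fold). Hes1 stayed within 2-fold in all 4 libraries, at -0.82, -0.57, -0.59 and -0.21. Toward astrocytes 2 of 7 genes were lower, against 4.25% of 7882 genes, with 0 higher against 1.83%. These were Jag1 (3.85-fold; -2.02, -1.99, -1.70 and -2.07) and Notch2 (2.91-fold; -1.61, -1.69, -1.57 and -1.29). Notch1 differed by 0.14, 0.07, 0.18 and 0.16, the steadiest value of this step. Hes5 and Hey1 were above the stem-like level in all 4 libraries, by means of 1.47-fold and 1.90-fold, without reaching 2-fold in each.

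From dividing astrocyte progenitors to astrocytes 2 of 7 genes were lower, Dll1 (5.36-fold) and Hes6 (2.86-fold), against 5.25% of 7740 genes, with 0 higher against 1.63%. Both calls were lost in 4 of 7 alternatives, among which the threshold of 1.5-fold could lose no call. At a clustering resolution of 2 the mean log2 ratio was -0.57 for Dll1 and -0.04 for Hes6. In the neuronal lineages Dll3 was lower along both steps. From dividing inhibitory neuron progenitors to inhibitory neurons 2 of 5 genes were lower, Notch1 (3.59-fold; -1.70, -2.14, -1.49 and -2.04) and Dll3 (2.81-fold; -1.33, -1.32, -1.14 and -2.18), against 6.74% of 7506 genes, with 0 higher against 4.52%. With the pathway genes kept in the clustering and with doublets removed, 7 genes were called in either direction. The genes that reached 20 CPM there are not the same 5, and the share of all genes was not computed. From excitatory precursors to excitatory neurons 1 of 4 genes was lower, Dll3 (2.60-fold; -1.58, -1.30, -1.27 and -1.37), against 1.64% of 7722 genes, with 0 higher against 4.12%. Heyl was below 20 CPM in both types of every step.

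Of the 18 calls, 9 held under every other way of choosing cells, UMIs or the added constant that kept both types. They were all 3 toward ependymal cells, Notch1 toward inhibitory neurons, Notch2 and Hes6 toward OPC, and Notch1, Hes1 and Hes5 toward committed precursors. Without control replicate 1, Dll1 was no longer called from dividing progenitors to astrocytes, whereas Dll1 was called toward inhibitory neurons. Without control replicate 2, Notch1 was called toward excitatory neurons (mean log2 ratio -1.21) and Dll3 toward committed precursors (-1.59). Without mutant replicate 1, Hes6 was called toward ependymal cells (-1.54) and Hey1 toward committed precursors (-1.47), and without mutant replicate 2, Hes5 was called toward OPC (-1.53). All of these were lower in the later type. With a library left out fewer ratios had to pass 2-fold, so calls could be gained and could be lost only through the limit of 20 CPM. No share of all genes was computed for these gained calls, which are therefore no result about these genes.

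The other 44 pathway genes on the list moved in both directions. From primitive progenitors to OPC, 2 of 25 were higher and 3 lower (9.35% and 4.84% of all genes). Lfng and Mfng, glycosyltransferases that modify Notch receptors, were among the lower ones, by log2 means of -3.17 and -2.54. Dner, an atypical ligand, was higher by 1.32 and Neurl1a, a regulator of ligand uptake, by 3.50. From OPC to committed precursors 0 of 24 were higher and 4 lower (4.88% and 10.8% of all genes). Nrarp, a direct target that feeds back on Notch, was lower by -3.68, from 54.7 ± 4.16 to 3.72 ± 2.20 CPM (SD, n = 4). Neurl1a was lower by -3.19, Dner by -3.02 and Numb, an inhibitor of Notch, by -2.06.

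Toward ependymal cells, 1 of 30 was higher (Mib2, a ligand-activating ligase, 1.21) and 2 lower (Nrarp, -3.33, and the receptor Notch3, -3.23), where 15.9% and 10.1% of all genes were. Toward astrocytes 0 of 30 were higher and 2 lower when stem-like cells were the earlier type, the coactivator Maml3 (-2.82) and the non-canonical ligand Dlk1 (-2.58), where 1.83% and 4.25% of all genes were. From dividing astrocyte progenitors 1 of 27 was higher (Psen2, a γ-secretase subunit, 2.09) and 1 lower (Neurl1b, -4.13), where 1.63% and 5.25% of all genes were. Toward inhibitory neurons 1 of 24 was higher (Dtx1, 1.51) and 2 lower (Neurl1b, -2.92, and Nrarp, -1.32), where 4.52% and 6.74% of all genes were. Toward excitatory neurons 3 of 24 were higher (Dtx4, 2.5; Dtx1, 2.30; Dner, 1.82) and 1 lower (Mfng, -2.51), where 4.12% and 1.64% of all genes were. Nrarp and Hes5 were thus both lower toward ependymal cells and toward committed precursors.

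The highest levels that some of the other pathway genes reached in a neural type are given gene by gene. Psenen, another γ-secretase subunit, was at 183 ± 22.8 CPM in stem-like cells, Rbpj at 147 ± 39.2 CPM in excitatory precursors, Snw1, a nuclear cofactor, at 152 ± 19.2 CPM in primitive progenitors, Mib1, the ligase of Delta ligands, at 129 ± 12.7 CPM in ependymal cells and Dner at 334 ± 91.6 CPM in OPC (SD, n = 4 in each). The coactivator Maml2 measured 814, 84.8, 875 and 111 CPM in OPC, and Maml3 803, 179, 795 and 176 CPM in inhibitory neurons. Both were split by replicate number and not by genotype.

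Within the oligodendrocyte lineage, cells in which a Dll3 UMI was found were set beside cells of the same type without one. This comparison was chosen after the values had been seen. A gene was called where the ratio was at least 1.5-fold in the same direction in all 4 libraries. Among primitive progenitors, 354 of 585 cells (60.5%) had a Dll3 UMI, among dividing OPC 278 of 652 (42.6%) and among OPC 1118 of 2404 (46.5%), against 5 of 363 microglia (1.38%), with median depths of 13706, 14068, 8802 and 10717 UMIs. After each cell was thinned to 2000 UMIs the shares were 21.7%, 9.51%, 18.6% and 0%.

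Hes1 was lower in the cells with Dll3 in all 3 types. In OPC it was at 53.1, 32.8, 65.0 and 21.9 CPM with Dll3 and at 92.4, 80.4, 134 and 83.5 CPM without. In dividing OPC the means were 32.3 and 90.0 CPM and in primitive progenitors 43.8 and 89.3 CPM. Hes1 was thus called lower in 3 of 3 types, where 0.952%, 0.879% and 0.691% of all genes were (OPC, dividing OPC, primitive progenitors). Hes5 was called lower in dividing OPC, at 95.8 against 200 CPM on average, and not in OPC (105 against 170 CPM) or primitive progenitors (316 against 391 CPM). Hes6 was called higher in OPC (96.5 against 44.7 CPM) and dividing OPC (60.5 against 32.7 CPM), where 0.33% and 0.217% of all genes were. Dll1 was called higher in OPC (60.6 against 32.7 CPM) and primitive progenitors (165 against 75.0 CPM), the latter beside 0.522% of all genes. Notch1 was at 148 and 146 CPM in OPC with and without Dll3.

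Cells with a Dll3 UMI were deeper than those without, at medians of 10443 and 6455 UMIs in OPC. The medians were 17326 and 11767.5 UMIs in dividing OPC and 14289 and 12662 UMIs in primitive progenitors. A comparison at like depth is given for OPC alone, so the calls in dividing OPC and primitive progenitors were not repeated at like depth. In OPC of 8000 to 16000 UMIs, where the medians were 11218 and 10767, Hes1 was at 51.4, 32.0, 74.4 and 22 CPM with Dll3 and at 105, 73.5, 145 and 79.0 CPM without, and was called again beside 1.03% of all genes. Dll1 was called again too (60.3 against 34.1 CPM, beside 0.23% of all genes), whereas Hes6 was not (99.8 against 50.1 CPM). The OPC clusters of 650 and 955 cells differed in the same genes. The cluster of 650 cells held Dll3 at 216 ± 54.5 CPM, Hes6 at 135 ± 36.6 CPM, Hes1 at 18.8 ± 6.84 CPM and Hes5 at 71.2 ± 26.8 CPM, whereas the cluster of 955 cells held Dll3 at 57.3 ± 11.1 CPM, Hes6 at 45.3 ± 15.3 CPM, Hes1 at 113 ± 47.0 CPM and Hes5 at 202 ± 24.7 CPM (SD, n = 4). The remaining cluster, of 799 cells of which 7 and 10 came from the replicate 2 libraries, did not follow this order, with Dll3 at 124 ± 53.7 CPM and Hes6 at 42.9 ± 29.9 CPM beside Hes1 at 59.3 ± 26.6 CPM (SD, n = 4). Inside the cluster of 650 cells Hes1 was again lower with Dll3, at 11.6 against 46.5 CPM, and Hes5 at 58.3 against 132 CPM, both called beside 0.146% of all genes. Hes6 (140 against 109 CPM) and Dll1 (80.7 against 43.9 CPM) were not called there. Cells with Dll3 were still deeper in this cluster, at medians of 11046 and 8148 UMIs. Inside the cluster of 955 cells, Hes1 was at 101 against 120 CPM and was not called, beside 0.0251% of all genes. Neither were Hes5 (185 against 210 CPM), Hes6 (54.0 against 38.8 CPM) and Dll1 (34.4 against 30.4 CPM). With Dll1 in place of Dll3, Hes1 was called lower in primitive progenitors (42.2 against 97.2 CPM, beside 0.145% of all genes) and not in OPC (48.3 against 77.6 CPM, beside 0.128%) or dividing OPC (51.6 against 66.1 CPM, beside 0.0129%). Dll3 was called higher in primitive progenitors with Dll1 (142 against 59.4 CPM, beside 0.381% of all genes).

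**Figure D4:**
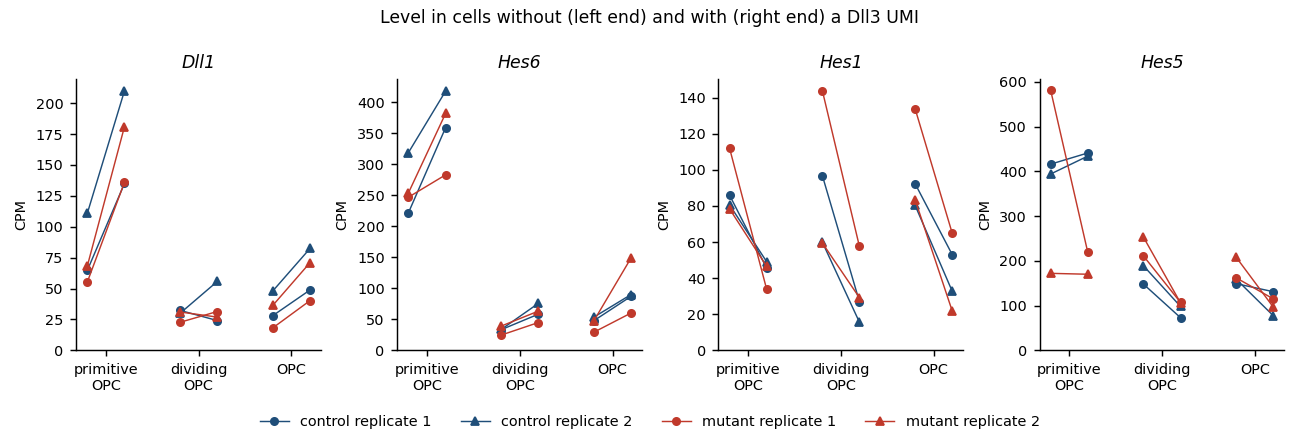
Levels (CPM) of Dll1, Hes6, Hes1 and Hes5 in cells without (left end of each line) and with (right end) a Dll3 UMI, in 3 types of the oligodendrocyte lineage. Each line is 1 library, blue for control and red for mutant. All 12 lines of Hes1 fall and all 12 of Hes6 rise, whereas Hes5 in primitive progenitors falls steeply in mutant replicate 1 alone.

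To ask whether the heterozygous Chd8 mutation changed the pathway, counts summed per type and library were tested between genotypes with edgeR (quasi-likelihood test, Benjamini-Hochberg adjustment within a type). With genotype as the only term, 0 of 183188 gene and type pairs passed an adjusted p of 0.05 (0%), and 0 of the 131 pairs of the 10 genes. At an unadjusted p under 0.05 there were 247 pairs (0.135%), of which 2 belonged to the 10 genes, both Hes5. DESeq2 also called 0 genes, with 241 pairs (0.0752%) at an unadjusted p under 0.05. Both shares are far below the proportion of 0.05 that such tests should give when no gene differs. Neither fit had a term for the replicate number, so the differences between replicate numbers counted as spread within a genotype. The 0 calls of these 2 fits therefore say little about genotype. Because the replicate number went with the program version and with Xist, and same-numbered libraries deviated together, the fit with the replicate number as a block is given as well. It called 157 pairs (0.0857%), 48 higher and 109 lower in mutant libraries, of which 1 belonged to the 10 genes. At an unadjusted p under 0.05 it gave 11 of the 131 pairs, against 3.88% of all pairs.

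That gene was Hes5 in primitive oligodendrocyte progenitors. Its levels of 433 and 412 CPM in control libraries and 319 and 171 CPM in mutant libraries did not overlap. Under the block its log2 change was -0.81 (SE 0.171, edgeR adjusted p = 0.00192), and the adjusted p was 0.00483 over the genes of all types together. With 4 libraries and terms for replicate and genotype, this fit leaves little to estimate the spread of a single gene. Its p therefore leans on the dispersion shared across genes. Without the block the log2 change was -0.76 (SE 0.369, edgeR adjusted p = 1). The size leaned on mutant replicate 2, since the log2 change was -0.39 without it and -1.28 without mutant replicate 1. Under the 6 other choices of cells or UMIs, the blocked log2 change lay between -0.97 and -0.73, both mutant libraries were below both control libraries each time, and the adjusted p was under 0.05 in 2 of 6. Those were the mitochondrial limit of 5% (edgeR adjusted p = 0.0111) and the removal of doublets (edgeR adjusted p = 0.015, with the nearest libraries at 414 and 411 CPM). The other 4 gave edgeR adjusted p of 0.359 to 0.975. At the 5% limit the type was a different set of cells. It held 274 control and 248 mutant cells in replicate 1, against 184 and 165 as reported, and its mean Dll1 level was 95.8 against 130 CPM. In the replicate 2 libraries only 14 control and 3 mutant cells of all types were marked as doublets. All these choices reuse the same 4 libraries and many of the same cells, so the repeated order of the libraries is not repeated evidence. The share of all genes without overlap in this type is not given here. In this type the block called 22 of 11234 genes as reported. It called 0 with the pathway genes kept in the clustering and 0 in thinned cells.

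The mutant replicate 1 library was uneven within this type. In primitive progenitors with a Dll3 UMI, Hes5 was at 441, 434, 219 and 170 CPM, and in those without one at 416, 394, 581 and 172 CPM. The 2 mutant libraries were thus both low in the cells with Dll3, and only replicate 2 was low in the cells without. This contrast between the 2 sets of cells rests on mutant replicate 1 alone and was not tested. Hes1 in primitive progenitors (58.2, 66.6, 55.5 and 58.9 CPM) overlapped between genotypes, with a blocked log2 change of -0.10 (SE 0.192, edgeR adjusted p = 1).

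Hes5 was also lower in both mutant libraries of committed precursors, at 28.3 and 39.1 against 15.2 and 13.3 CPM, a log2 change of -1.13 (SE 0.35, edgeR adjusted p = 1) and -1.06 with the block (SE 0.308, edgeR adjusted p = 0.148). In OPC, between these types in the lineage, the values of 138 and 125 against 137 and 142 CPM overlapped (log2 0.07, SE 0.233, edgeR adjusted p = 1). Dividing OPC had a blocked log2 change of 0.34 (SE 0.171, edgeR adjusted p = 1). In microglia Hes5 was at 26.9 and 63.5 against 10.9 and 25.6 CPM, and in pericytes and mural cells at 50.2 and 23.7 against 12.3 and 22.9 CPM. Hes5 in these cells outside the neural lineage was thus mostly lower in mutant libraries too, and its part in the differences of committed precursors and primitive progenitors was not tested.

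**Figure D5:**
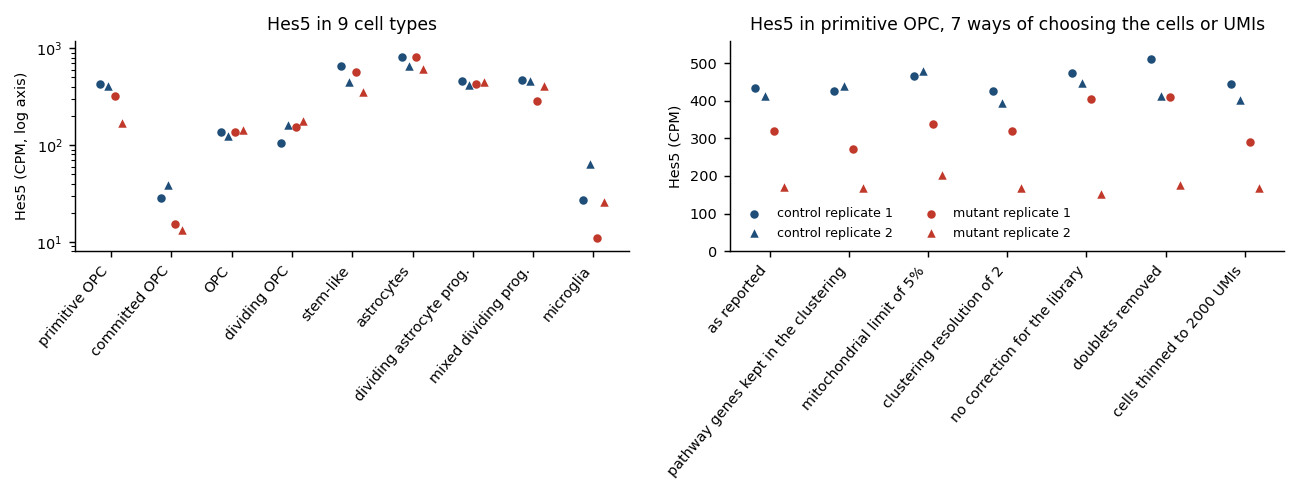
Hes5 level in each library, blue for control and red for mutant, circles for replicate 1 and triangles for replicate 2. The left panel shows 9 cell types on a log axis, and the right panel shows primitive oligodendrocyte progenitors on a linear axis under 7 ways of choosing the cells or UMIs. The mutant libraries lie at 319 and 171 CPM against 433 and 412 CPM as reported, and OPC overlap.

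For the other 9 genes no call was made under either fit. The remaining pairs of the 10 genes at an unadjusted p under 0.05 with the block, with their edgeR adjusted p, were Hes1 in dividing astrocyte progenitors (log2 0.49, adjusted p = 0.428) and dividing OPC (0.40, adjusted p = 1), Notch2 in astrocytes (0.41, adjusted p = 0.999), Dll1 in committed precursors (-0.98, adjusted p = 0.815), Hey1 in dividing astrocyte progenitors (0.40, adjusted p = 0.867), and Hes5 in microglia (-1.24, adjusted p = 1), dividing excitatory precursors (-0.82, adjusted p = 0.993), mixed dividing progenitors (-0.42, adjusted p = 1) and dividing OPC. None of the 542 pairs of the other pathway genes was called by either fit. An unadjusted p under 0.05 was found for 0 without the block, beside 0.135% of all pairs, and for 17 with it, beside 3.88%. These counts did not exceed the shares of all pairs and are no result about these genes. A p that misses the threshold with 2 pools per group does not show that the levels were equal.

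The lineage steps were compared between genotypes as well. The ratios of control and mutant libraries did not overlap in 13 of 46 pairs of gene and step, 28.3%, close to the 25.1% of all 56090 pairs, and this count is therefore no result about these genes. For Hes5 from primitive progenitors to OPC the ratios were -1.64 and -1.71 in control and -1.22 and -0.26 in mutant libraries, and from OPC to committed precursors they were -2.24 and -1.65 against -3.09 and -3.32. The difference of means was 0.94 for the first and -1.26 for the second. An exact two-sided permutation test over the 6 assignments of the libraries gave p = 0.333 for each. This is the smallest p that 2 against 2 allows, and every pair without overlap gets it. Both Hes5 pairs are among the 13. Hes5 levels in OPC overlapped between genotypes, so these ratios largely restate the levels of primitive progenitors and committed precursors given above. They are no separate result.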

How the data were processed

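Single-cell 3′ RNA libraries (10x v3.1) of sorted cells were measured, 2 per genotype. The deposited values are raw UMI counts per gene and barcode, which the authors made with Cell Ranger against mm10. The labels name version 3.0, whereas the matrix headers give 7.0.0 for the replicate 1 libraries and 5.0.1 for the replicate 2 libraries. No column other than the counts was used.

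A barcode was kept if it held between 2000 and 40000 UMIs from no fewer than 1000 genes, with no more than 10% of them mitochondrial, which left 37355364 to 73584401 UMIs per library. Counts were log-normalised, and 2000 variable genes without the 54 pathway genes were centred and scaled within each library, reduced to 30 principal components and clustered (scanpy 1.11.5, Leiden resolution 1). Each cluster was scored by its fixed markers, and where other types scored close to the highest it took the type whose score came nearest to that type's own maximum over clusters, so that some clusters did not take their highest-scoring name. Scrublet marked 0.0914% to 2.60% of cells per library, less than 0.5% in both replicate 2 libraries, so that it had not worked there, and doublets were left in except in an alternative.

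Levels are summed UMIs per type and library. Genotypes were compared with edgeR 4.0.16 (quasi-likelihood test, filterByExpr, TMM) on these sums, and DESeq2 1.42.0 was an alternative. Scripts were tested on simulated data. The replicate numbers were taken to pair the libraries because they mark the program version in the headers and because the deviations of same-numbered libraries from their group means correlated at 0.606 to 0.894 in the 16 types.

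Genes named outside the 10 were those of the pathway list called along a step or with the highest levels in a neural type, Chd8, and the 2 genes most like each of the 10. Some of these genes are not reported here. Marker genes, Xist and mitochondrial shares describe the libraries. The 10 genes, the lists and the comparisons were chosen with earlier results of these data known. Gene positions are from GENCODE vM21 on mm10, and promoter sequences from a RefSeq promoter set (GRCm38.p6) that held windows for 7 of the 10 genes. Alternatives changed the clustering, the mitochondrial limit (5%), the doublets, the depth (cells thinned to 2000 UMIs), the added constant (10 CPM), the fold (1.5), the scaling, the filter, the block and the libraries.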

Additional observations from a re-analysis of the deposited data

How the results depend on the processing

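With 2 libraries per genotype the counts limit what could be called, and leaving out a library leaves a lone one that is assumed to vary like the other group. Between genotypes, where no gene was called as reported, 66 gene and type pairs were called with no filter on low counts and 0 to 1 when a library was left out (1 without mutant replicate 2). With the replicate block 157 pairs were called, 1 of them among the 10 genes, and this pairing changed no other call on the 10 genes. The block could not be fitted with a library left out.

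Along the steps, the count toward astrocytes from stem-like cells went from 2 to 0 at a clustering resolution of 2 and to 1 with 10 CPM added. From dividing astrocyte progenitors it went from 2 to 0 with the pathway genes kept in the clustering, at a resolution of 2, with doublets removed and with 10 CPM added, and to 1 to 2 with a library left out (1 without control replicate 1). Toward inhibitory neurons it went from 2 to 7 with the pathway genes kept in the clustering and with doublets removed, and to 1 with 10 CPM added. Toward excitatory neurons it went from 1 to 0 at a resolution of 2 and to 1 to 2 with a library left out (2 without control replicate 2). Toward OPC it went from 4 to 2 at a mitochondrial limit of 5% and in cells thinned to 2000 UMIs. The causes were not tested. These counts took calls in either direction, and the genes that reached 20 CPM could change with the setting. No share of all genes was computed under the alternatives. A step whose types were not both found under a clustering gave no value. No log2 ratio that had been called changed its sign. The type with the highest mean level was the same for 7 to 10 of the 10 genes, and Dll3 moved most often, between OPC and primitive progenitors.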
